A study of Mus musculus with 2 samples.

Results

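The genes of mitosis and the G2/M phase of the cell cycle are described here, a fixed list of 37 genes that was matched by symbol to the 54680 loci of the deposited table. All 37 were found, each at 1 locus, and all are protein-coding. RNA sequencing compared 1 library of CT26 cells, which are mouse colon cancer cells, infected with lentivirus for a short hairpin RNA targeting Setdb1 (the shSetdb1 library) with 1 library of CT26 cells given the empty knockdown vector (the shCtrl library). Setdb1 encodes a histone H3 lysine methyltransferase. Both cultures were grown in medium with serum for 6 days before collection, and the title of the shSetdb1 sample calls those cells differentiated. The genotype of the control cells is given as wild type, and the number of hairpins or clones is not stated. With 1 library in each group there is no replicate check and no test between conditions, so every difference below describes these 2 libraries.

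Levels are FPKM, fragments per gene model length and per depth, with the same depth of 18731117 reads used for both libraries. Unless another scaling is named, the log2 ratios below therefore carry the ratio of the read totals, 1.03, knockdown over control. The libraries held 18421604 (shCtrl) and 19045830 (shSetdb1) reads. Changes are given in 2 ways. The first is the log2 ratio of (FPKM + 1), knockdown over control, in which the change of a gene at a low level looks smaller than it is. The second is the read ratio, the recovered shSetdb1 reads over the shCtrl reads, each relative to its own total, with a 95% exact (Clopper-Pearson) interval. The interval holds counting error alone: PCR copies were not marked with molecular identifiers, and so reads are not independent molecules. Setdb1 itself was at 10.4 FPKM (1340 reads) in shCtrl cells and 2.47 FPKM (317 reads) in shSetdb1 cells, with a log2 ratio of -1.72, and the read ratio was 0.229 (0.202 to 0.259). The gene model overlaps that of Cers2, which had 12233 and 8639 reads. Of 10 colon epithelium markers, 3 reached 1 FPKM in at least 1 library (Krt18, Krt19 and Krt20), the summed reads of all 10 were 1216 in shCtrl cells and 3795 in shSetdb1 cells, and Cdh1, Epcam and Cdx1 had 0 reads in both. Of 10 markers of other cells, only Cd68 reached 1 FPKM, with 245 reads in shCtrl cells and 2360 in shSetdb1 cells. The other leukocyte markers were at or near 0, Adgre1 and Cd3e with 0 reads in both libraries and Ptprc with 0 in shCtrl cells and 4 in shSetdb1 cells. The part of these markers in the results below was not tested.

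A cell enters mitosis when Cdk1 bound to B-type cyclins is activated by Cdc25 phosphatases, and it leaves mitosis when the anaphase-promoting complex, with Cdc20, has the cyclins degraded. In between, Aurora and Polo-like kinases build the spindle, the kinetochores attach chromosomes to it, and the central spindle directs the contractile ring that divides the cell. Most of these genes are transcribed late in the cell cycle under the MuvB complex with B-Myb and Foxm1, which is known to act at a promoter element called the cell cycle homology region, often with CCAAT boxes upstream. Their RNA is therefore widely read as a sign of how many cells of a culture are dividing. In RNA from a whole culture, fewer cells in G2 and M and less RNA per such cell cannot be told apart.

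The promoters of the listed genes shared these letters. RefSeq promoter windows on GRCm38.p6, which run from 250 bases before to 50 bases after the start of transcription, were matched by symbol to 30 of the 37 members, in 32 windows. The cell cycle homology region was searched as any of 3 words, TTTGAA and also TTCGAA and also TTTAAA, on both strands, and the CCAAT box as CCAAT on both strands. The homology region was found in 29 of the 32 windows (90.6%), against 28.8% of all 32851 windows of that length. It lay within 50 bases of the start in 26 of them, 81.2% of the members' windows against 8.62% of all windows. CCAAT was found in 25 of the 32 (78.1%) against 37.4% of all windows. The windows of the replication genes, which act in S phase, held the homology region in 10 of 37 (27.0%). Some other lists of mitotic genes held it more often than that, with 19 of 24 windows (79.2%) for further spindle and cytokinesis genes, 19 of 33 (57.6%) for kinetochore and checkpoint genes and 10 of 20 for condensin, cohesin and separase genes. Within 50 bases of the start it was in 70.8% of those spindle and cytokinesis windows. An E2F-type sequence, searched on both strands as any of the words TTGGCGC and also TTCCCGC and also TTGCCGC and also TTCGCGC, was in 24 of the 37 replication windows (64.9%), in 6 of the 32 members' windows (18.8%) and in 9.57% of all windows. The E2F word TTGGCGC can share letters with ATTGG, and a match is only a match of letters.

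Stretches of 8 of these promoters are printed, from 100 bases before to 30 bases after the start. They were chosen from members that were higher, level or lower in shSetdb1 cells, and all 8 hold both kinds of letters. As chosen examples they do not show that members at either end hold these letters in general. Birc5, the other of the 4 highest by log2 ratio, and Anln, the other of the 5 lowest, are not printed. Neither had CCAAT in its window, and the nearest homology match of Birc5 was at -220 from the start. Capitals mark CCAAT (or ATTGG, the same box on the other strand) and the homology region (TTTGAA, its reverse complement TTCAAA, or the palindromes TTCGAA and also TTTAAA). Cenpa (chr5:30666786-30666915, plus strand), Ccnb2 (chr9:70421525-70421654, minus strand) and Cdc25b (chr2:131186848-131186977, plus strand) were among the 4 highest members by log2 ratio. Cdc20 (chr4:118437314-118437443, minus strand) was level. Ect2 (chr3:27153825-27153954, minus strand), Top2a (chr11:99024160-99024289, minus strand), Kif11 (chr19:37376282-37376411, plus strand) and Prc1 (chr7:80294376-80294505, plus strand) were among the 5 lowest.
Cenpa: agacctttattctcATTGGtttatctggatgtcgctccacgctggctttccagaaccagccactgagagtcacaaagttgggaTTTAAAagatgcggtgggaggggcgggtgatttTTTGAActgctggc
Ccnb2: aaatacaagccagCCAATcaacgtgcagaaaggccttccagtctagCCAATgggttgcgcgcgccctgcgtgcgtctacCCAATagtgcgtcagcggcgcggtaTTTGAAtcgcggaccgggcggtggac
Cdc25b: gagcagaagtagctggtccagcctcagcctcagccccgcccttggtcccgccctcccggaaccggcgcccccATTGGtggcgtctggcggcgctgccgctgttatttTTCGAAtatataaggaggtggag
Cdc20: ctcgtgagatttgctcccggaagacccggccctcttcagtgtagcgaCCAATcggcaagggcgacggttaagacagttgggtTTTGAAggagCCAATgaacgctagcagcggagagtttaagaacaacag
Ect2: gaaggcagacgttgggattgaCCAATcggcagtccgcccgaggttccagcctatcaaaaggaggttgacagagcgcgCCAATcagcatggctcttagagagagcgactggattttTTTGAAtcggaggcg
Top2a: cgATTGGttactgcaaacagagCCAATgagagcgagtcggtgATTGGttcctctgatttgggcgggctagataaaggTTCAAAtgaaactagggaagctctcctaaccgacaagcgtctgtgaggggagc
Kif11: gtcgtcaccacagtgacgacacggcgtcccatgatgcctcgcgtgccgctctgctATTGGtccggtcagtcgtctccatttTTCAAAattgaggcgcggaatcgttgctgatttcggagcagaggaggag
Prc1: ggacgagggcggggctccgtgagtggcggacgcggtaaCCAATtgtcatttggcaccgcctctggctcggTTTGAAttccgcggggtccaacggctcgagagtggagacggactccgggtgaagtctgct

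As a whole the mitotic genes were near their control level in shSetdb1 cells, with a few cytokinesis, spindle and chromosome genes lower and a few centromere, passenger and mitotic entry genes modestly higher. Of the 37 members, 36 reached 1 FPKM in at least 1 library, and Cenpf did not. Over these 36 the median log2 ratio was -0.0746, beside -0.00039 over all 10671 genes that passed the same filter. Their quartiles were -0.30 and 0.11, beside -0.36 and 0.38 for all genes. The members' quartiles thus lay inside those of all genes, and 24 of 36 (66.7%) were below 0, beside 5336 of the 10671 genes.

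No member was 1.5-fold or more above its shCtrl level, where 16.9% of all genes were, and 3 members (Ect2, Top2a and Anln) were 1.5-fold or more lower, where 14.3% of all genes were. At 2-fold, 1 member was lower (Ect2), beside 4.85% of all genes, and 0 were higher, beside 6.81%. By the read ratio, which has no pseudocount, 8 members were at least 1.5-fold lower, beside 21.1% of all genes, and 0 were at least 1.5-fold higher, beside 19.2%. The 5 added by that measure were Kif11, Nusap1, Hmmr, Prc1 and Cenpe. After a correction of the log2 ratios for GC content and gene length, only Ect2 was past 1.5-fold, beside 13.6% of all genes lower and 15.1% higher. The shares for the members are near or under those of all genes.

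At these depths smaller differences than 1.5-fold were resolved between the libraries. The counting interval lay above 1 for 8 of the 36 members, beside 35.2% of all genes, and below 1 for 20, beside 40.6% of all genes. These shares are not like for like, since the members' intervals were narrower. Their median half-width was 0.098 on the log2 scale, beside 0.169 for all genes, so a smaller change could leave 1. For the other 8 (Ttk, Mki67, Plk1, Cdc20, Incenp, Kif2c, Ndc80 and Bub1) the interval included 1, so no difference beyond counting error was seen. It was wide where reads were few, as for Ttk (0.707 to 1.13), and narrow for Cdc20 (0.930 to 1.002). In summed reads the 37 members went from 82481 in shCtrl cells to 81696 in shSetdb1 cells, a read ratio of 0.958 (0.949 to 0.967). They took 0.448% of the shCtrl reads and 0.429% of the shSetdb1 reads. The median read ratio of all genes past the filter was 0.967, and that of the 36 members 0.909. On this scale the typical gene was thus slightly under 1. Among intervals counted as below 1, those of Cdca8, Ccnb1, Mad2l1 and Ccna2 include 0.967. Among those that included 1, the interval of Bub1 (0.968 to 1.43) lay just above 0.967.

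**Figure D1:**
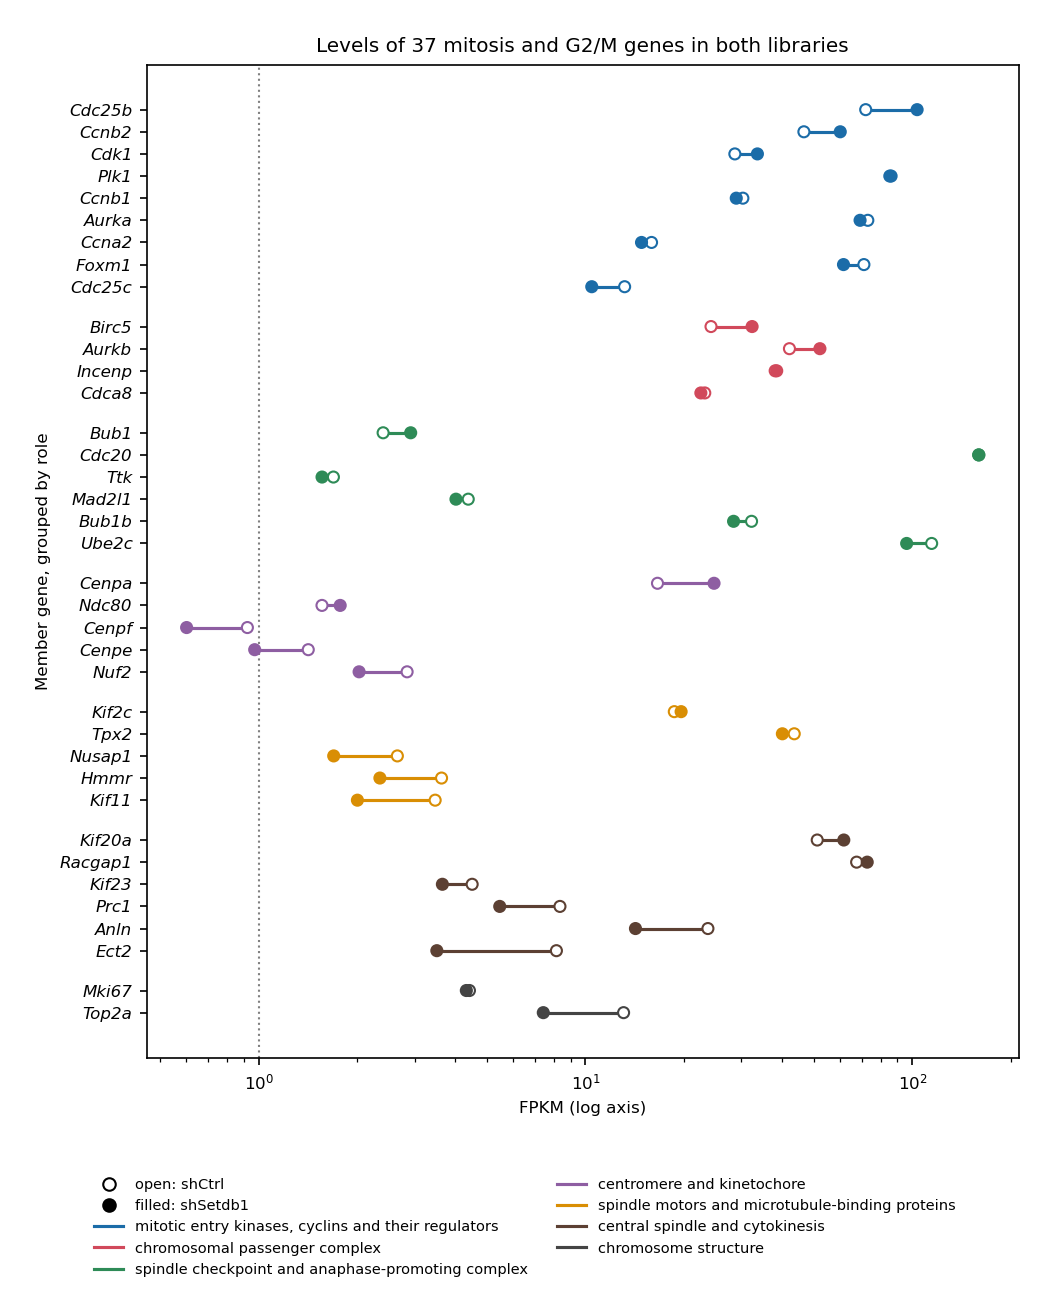
FPKM (log axis) of the 37 members in shCtrl cells (open circles) and shSetdb1 cells (filled circles), 1 library each, grouped by role, with a dotted line at 1 FPKM. Levels span from under 1 FPKM for Cenpf to near 160 FPKM for Cdc20, and the longest gaps to the left belong to Ect2, Top2a and Anln among members above 5 FPKM in shCtrl cells.

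The kinases, cyclins and phosphatases that start mitosis were close to their control level, with Cdc25b and Ccnb2 higher and Cdc25c lower. Cdk1, the kinase that drives entry into mitosis (chromosome 10, 69335146 to 69352938 in GRCm38), was at 28.6 FPKM in shCtrl cells and 33.6 FPKM in shSetdb1 cells, a read ratio of 1.13 (1.08 to 1.19). Its partner cyclins differed from each other. Ccnb2, which encodes cyclin B2 (chromosome 9, 70407692 to 70421547), was at 46.6 FPKM in shCtrl cells and 60.2 FPKM in shSetdb1 cells, with a log2 ratio of 0.36, and the read ratio was 1.25 (1.16 to 1.34). Ccnb1, which encodes cyclin B1, was at 30.3 and 28.9 FPKM, a read ratio of 0.923 (0.871 to 0.978). The Ccnb1 level was thus 0.651 of the Ccnb2 level per length in shCtrl cells and 0.481 of it in shSetdb1 cells. Ccna2, which encodes cyclin A2 and is needed earlier, from S phase on, was at 15.9 and 14.8 FPKM, a read ratio of 0.901 (0.831 to 0.978).

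The phosphatases that activate Cdk1 moved apart. Cdc25b (chromosome 2, 131186949 to 131198497) had 5028 reads in shCtrl cells and 7223 in shSetdb1 cells, or 72.0 and 103 FPKM. Its log2 ratio of 0.52 was the second highest of the 37 members, with a read ratio of 1.39 (1.34 to 1.44). Cdc25c (chromosome 18, 34732997 to 34751533) had 479 and 380 reads, with a log2 ratio of -0.31, and the read ratio was 0.767 (0.669 to 0.880). The Cdc25b level was 5.47 times that of Cdc25c per length in shCtrl cells and 9.90 times in shSetdb1 cells. Cdc25b overlaps Spef1 on the other strand, which had 318 and 354 reads, so Spef1 held few reads beside it.

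Plk1 and Aurka, the Polo-like and Aurora kinases of centrosome maturation and spindle assembly, were among the most abundant members and hardly differed. Plk1 was at 86.1 FPKM in shCtrl cells and 85.3 FPKM in shSetdb1 cells, a read ratio of 0.958 (0.915 to 1.005). Aurka was at 73.1 and 69.2 FPKM, a read ratio of 0.916 (0.873 to 0.961). Foxm1, the transcription factor of the late cell cycle genes (chromosome 6, 128362967 to 128376146), had most reads of these 9 genes over both libraries together, 7663 in shCtrl cells and 6637 in shSetdb1 cells. It was at 71.1 and 61.6 FPKM, with a log2 ratio of -0.20, and the read ratio was 0.838 (0.811 to 0.866). Foxm1 was thus lower beside a median log2 ratio of -0.0650 for the 9 genes of this role.

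Within the chromosomal passenger complex, which corrects wrong attachments of chromosomes to the spindle and later marks the cleavage plane, 2 subunits were higher and 2 were level or nearly so. Birc5, which encodes survivin (chromosome 11, 117849251 to 117855743), was at 24.2 FPKM in shCtrl cells and 32.3 FPKM in shSetdb1 cells, with a log2 ratio of 0.40, and the read ratio was 1.29 (1.21 to 1.38). Aurkb, its kinase (chromosome 11, 69045647 to 69051664), was at 42.1 and 52.2 FPKM from 2322 and 2878 reads, with a log2 ratio of 0.30, and the read ratio was 1.20 (1.13 to 1.27). The scaffold Incenp was at 38.1 and 38.5 FPKM, with a log2 ratio of 0.0152 that was below 0 under scaling by own read totals, by the upper quartile and without the 100 highest genes. Cdca8, which encodes borealin (chromosome 4, 124918465 to 124939311), was at 23.2 and 22.5 FPKM, with a log2 ratio of -0.0380, and the read ratio was 0.941 (0.887 to 0.998). The Birc5 level was 1.04 times the Cdca8 level per length in shCtrl cells and 1.43 times in shSetdb1 cells.

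The spindle checkpoint holds back anaphase until every chromosome is attached, by keeping Cdc20 from the anaphase-promoting complex. Its genes ran level or slightly lower. Cdc20 (chromosome 4, 118432901 to 118437352), at the highest level of all members, was at 159.8 FPKM in shCtrl cells and 159.6 FPKM in shSetdb1 cells, from 5593 and 5584 reads. Its log2 ratio was -0.00231, above 0 under scaling by the median ratio, and its read ratio was 0.966 (0.930 to 1.002). Cdc20 overlaps Elovl1 on the other strand, which had 2712 and 2587 reads, and how reads in the overlap were assigned is not given in the sources used here.

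Ube2c, the ubiquitin-conjugating enzyme of the anaphase-promoting complex (chromosome 2, 164769898 to 164778822), was at 115 FPKM in shCtrl cells and 96.1 FPKM in shSetdb1 cells. Its log2 ratio of -0.25 was the lowest of this role, with a read ratio of 0.811 (0.780 to 0.843). The checkpoint kinase Bub1b was at 32.2 and 28.4 FPKM, a read ratio of 0.852 (0.805 to 0.902), and Mad2l1, which binds Cdc20, was at 4.38 and 4.02 FPKM, a read ratio of 0.887 (0.795 to 0.990). Bub1, a kinase of the kinetochore (chromosome 2, 127801122 to 127831865), was at 2.40 and 2.92 FPKM, with a log2 ratio of 0.20, and the read ratio was 1.17 with an interval of 0.968 to 1.43. Ttk, the kinase that starts checkpoint signalling, had 156 and 144 reads, a read ratio of 0.893 (0.707 to 1.13). At these read numbers neither Bub1 nor Ttk could be told from a read ratio of 1.

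Among centromere and kinetochore genes, Cenpa stood at the upper end of all members, and Nuf2, Cenpe and Cenpf were lower. Cenpa, the histone H3 variant that marks the centromere (chromosome 5, 30666777 to 30674830), had 1823 reads in shCtrl cells and 2715 in shSetdb1 cells, or 16.6 and 24.7 FPKM. Its log2 ratio of 0.55 was the highest of the 37, with a read ratio of 1.44 (1.36 to 1.53). Cenpe, a kinesin motor of the kinetochore, had 229 and 157 reads, a read ratio of 0.663 (0.538 to 0.816). Cenpf, a large kinetochore and nuclear matrix protein, had 267 and 174 reads, a read ratio of 0.630 (0.518 to 0.766), and was under 1 FPKM in both libraries at 0.924 and 0.602 FPKM. These 2 genes were lower by a similar share, but from few reads. After the correction for GC content and gene length the log2 ratio of Cenpe went from -0.29 to -0.0676. Cenpf, which did not pass the filter, has no corrected value.

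Ndc80 and Nuf2, which pair in the complex that grips the microtubule, did not move together. Ndc80 had 190 reads in shCtrl cells and 216 in shSetdb1 cells, a read ratio of 1.10 with an interval of 0.901 to 1.34. Nuf2 (chromosome 1, 169497934 to 169531464) had 338 and 241 reads, with a log2 ratio of -0.34, and the read ratio was 0.690 (0.582 to 0.816). The Ndc80 level was 0.549 of the Nuf2 level per length in shCtrl cells and 0.875 of it in shSetdb1 cells. The table also lists 2700099C18Rik, a locus with the same protein match as Ndc80, with 48 and 43 reads.

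The spindle motors and microtubule-binding proteins had the lowest median log2 ratio of the 7 roles, -0.44 over 5 genes. Kif11, the kinesin that pushes spindle poles apart (chromosome 19, 37376403 to 37421859), had 313 reads in shCtrl cells and 181 in shSetdb1 cells, or 3.47 and 2.01 FPKM. Its log2 ratio was -0.57 and its read ratio 0.559 (0.463 to 0.674). Nusap1, which bundles microtubules near chromosomes, had 202 and 129 reads, a read ratio of 0.618 (0.491 to 0.774). Nusap1 overlaps Oip5 on the other strand, which had 203 and 201 reads, as many as Nusap1 itself in shCtrl cells. Hmmr, which focuses spindle poles, was at 3.63 and 2.35 FPKM, a read ratio of 0.626 (0.530 to 0.739).

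The more abundant genes of this role were level or slightly lower. Tpx2, which activates Aurora A on the spindle (chromosome 2, 152847964 to 152895321), had most reads, 3813 in shCtrl cells and 3507 in shSetdb1 cells. Its levels were 43.5 and 40.0 FPKM, with a log2 ratio of -0.12, and the read ratio was 0.890 (0.849 to 0.932). The Aurka level was 1.68 times the Tpx2 level per length in shCtrl cells and 1.73 times in shSetdb1 cells, so these partners kept nearly the same proportion. Kif2c, a kinesin that shortens microtubules at centromeres (chromosome 4, 117159639 to 117182639), was at 18.7 and 19.6 FPKM, with a log2 ratio of 0.0657, and the read ratio was 1.01 (0.945 to 1.09).

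The genes of the central spindle and cytokinesis had the widest range of the 7 roles, with log2 ratios from -1.02 to 0.27. Ect2, the exchange factor that activates RhoA at the cleavage plane (chromosome 3, 27097222 to 27153878), had 822 reads in shCtrl cells and 354 in shSetdb1 cells, or 8.15 and 3.51 FPKM. Its log2 ratio of -1.02 was the lowest of the 37 members, with a read ratio of 0.417 (0.367 to 0.472). Racgap1, the centralspindlin subunit that recruits Ect2 (chromosome 15, 99620496 to 99651656), had 8957 and 9650 reads, most of all members, or 67.6 and 72.8 FPKM, with a log2 ratio of 0.11, and the read ratio was 1.04 (1.01 to 1.07). The Ect2 level was 0.121 of the Racgap1 level per length in shCtrl cells and 0.0482 of it in shSetdb1 cells.

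Anln, which encodes the ring scaffold anillin, was at 23.7 FPKM (4022 reads) in shCtrl cells and 14.2 FPKM (2414 reads) in shSetdb1 cells, with a log2 ratio of -0.70, and the read ratio was 0.580 (0.552 to 0.611). Prc1, which bundles the antiparallel microtubules of the central spindle, was at 8.35 and 5.47 FPKM, with a log2 ratio of -0.53, and the read ratio was 0.633 (0.579 to 0.691). Kif23, the kinesin partner of Racgap1, was at 4.50 and 3.65 FPKM, a read ratio of 0.784 (0.699 to 0.880). Kif20a, a kinesin that brings the passenger complex to the central spindle (chromosome 18, 34624624 to 34633265), was at 51.2 and 61.7 FPKM, with a log2 ratio of 0.27, and the read ratio was 1.17 (1.12 to 1.22). Both subunits of centralspindlin thus stood on opposite sides of their control level. The gap depended on the processing. After the correction for GC content and gene length, the log2 ratio of Kif23 went from -0.24 to -0.0789 and that of Racgap1 from 0.11 to 0.13. With own read totals Racgap1 was at 0.0586. Of the 6 genes of this role, 4 had counting intervals below 1, beside 40.6% of all genes. Kif20a overlaps Cdc23 on the other strand, which had 885 and 959 reads.

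Top2a and Mki67, both in wide use as marks of proliferating cells, differed from each other. Top2a, the topoisomerase that untangles sister chromatids (chromosome 11, 98992943 to 99024189), had 2208 reads in shCtrl cells and 1254 in shSetdb1 cells, or 13.1 and 7.43 FPKM, with a log2 ratio of -0.74, and the read ratio was 0.549 (0.512 to 0.589). Mki67, which coats mitotic chromosomes and encodes the Ki-67 antigen (chromosome 7, 135689784 to 135716361), had 832 and 814 reads, or 4.41 and 4.32 FPKM, with a log2 ratio of -0.0257, and the read ratio was 0.946 (0.858 to 1.04). Their intervals do not overlap.

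**Figure D2:**
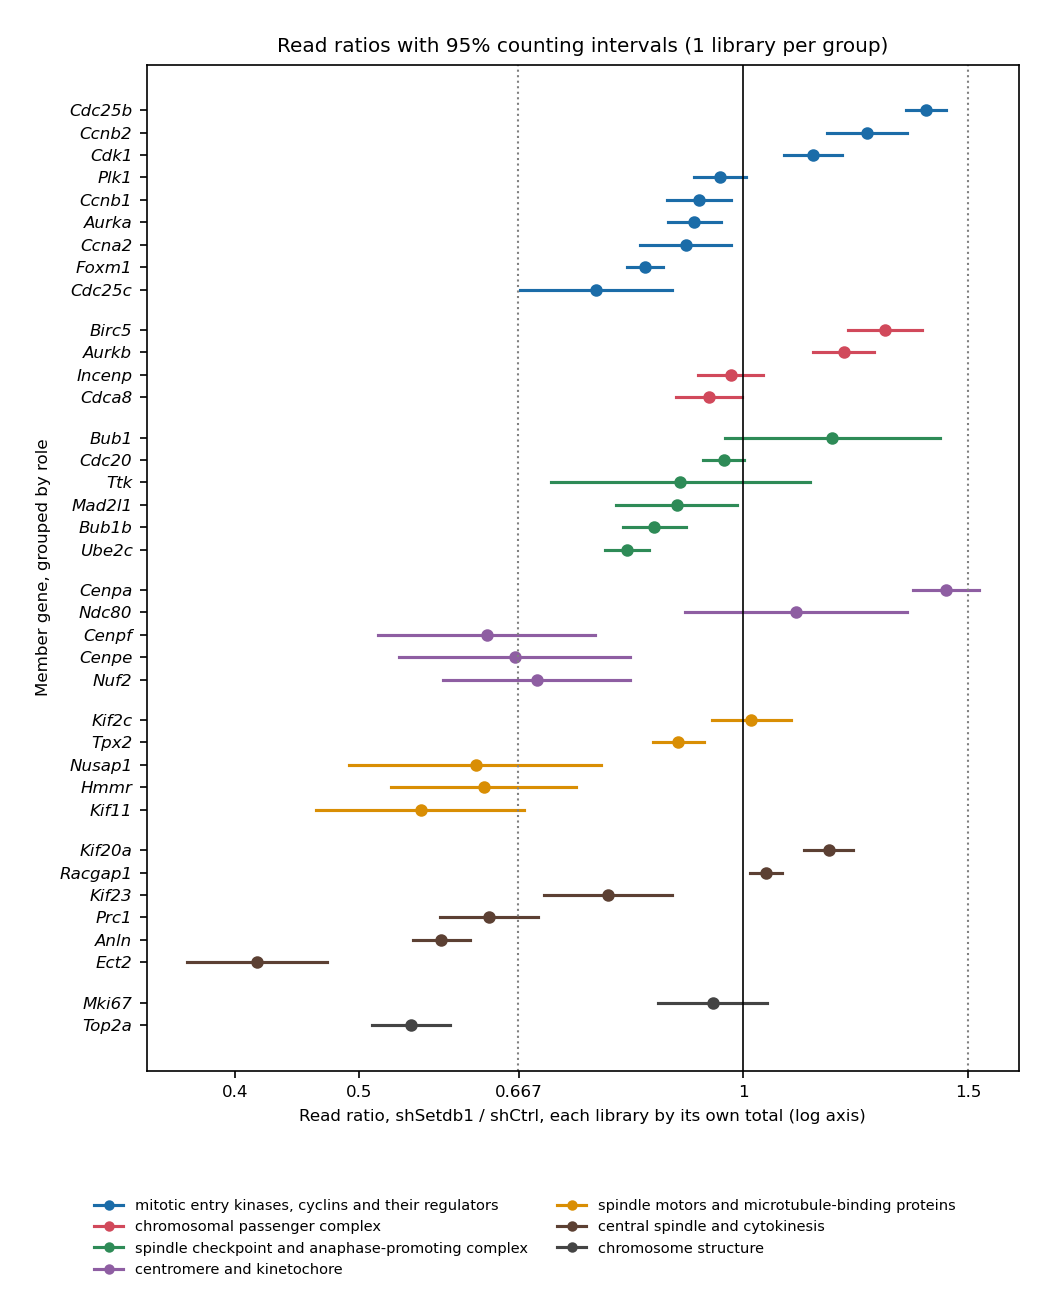
Read ratio of each member, shSetdb1 over shCtrl, each divided by its own read total (log axis), with 95% exact counting intervals as bars, grouped by role. Solid and dotted lines mark a ratio of 1 and 1.5-fold in each direction. Ect2 lies farthest left at 0.417 and Cenpa farthest right at 1.44.

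GC content, which the list did not use, went with the ratio in part. The 20 members with intervals below 1 had a GC content of 41.2% to 54.3% in their annotated transcripts, with a median of 44.8%, and the 8 members with intervals above 1 had 48.3% to 54.2%, with a median of 49.5%. The 8 whose intervals included 1 spanned 40.6% to 56.1%, so the classes overlap. Foxm1 (54.3%) and Ube2c (54.2%) were lower at high GC content, and Bub1 (40.6%), Ndc80 (43.6%) and Ttk (43.6%) were not lower beyond counting error at low GC content. The 9 members with a read ratio at least 1.5-fold lower, Cenpf included, lay between 41.3% and 45.4%, and no member was 1.5-fold higher. Across the 36 members the log2 ratio and GC content had a Pearson correlation of 0.53 and a Spearman correlation of 0.55, given as a description of genes that share 2 libraries. Over the 10516 genes with a GC content that passed the filter, the same correlations were 0.21 and 0.25. The median log2 ratio of all genes was -0.22 at 42% to 44% GC and 0.13 at 54% to 56% GC, so the low-GC members lay where genes in general were lower.

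After a lowess correction for GC content and gene length, the median log2 ratio of the members was -0.0719. Ect2 was then at -0.82, Top2a at -0.50, Anln at -0.45, Kif11 at -0.39 and Prc1 at -0.36, all closer to 0 than before. Some other members lay further below 0 than before. Foxm1 went from -0.20 to -0.31 and Ube2c from -0.25 to -0.38. Plk1 went from -0.0129 to -0.19 and Cdc20 from -0.00231 to -0.14. Cenpa was at 0.53, Birc5 at 0.43 and Cdc25b at 0.38. Under this correction Ccnb1, Mad2l1, Mki67 and Ttk turned from below to above 0, to values of 0.0753, 0.14, 0.15 and 0.0928. Level went with the uncorrected ratio as well. Before the correction, the 18 members with a mean level under 19.9 FPKM had a median log2 ratio of -0.30, and the 18 above it 0.00647. All genes in those ranges of level had uncorrected medians of -0.0245 and 0.0702. After the correction for GC content and length, the medians of the same members were -0.11 and 0.00641.

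**Figure D3:**
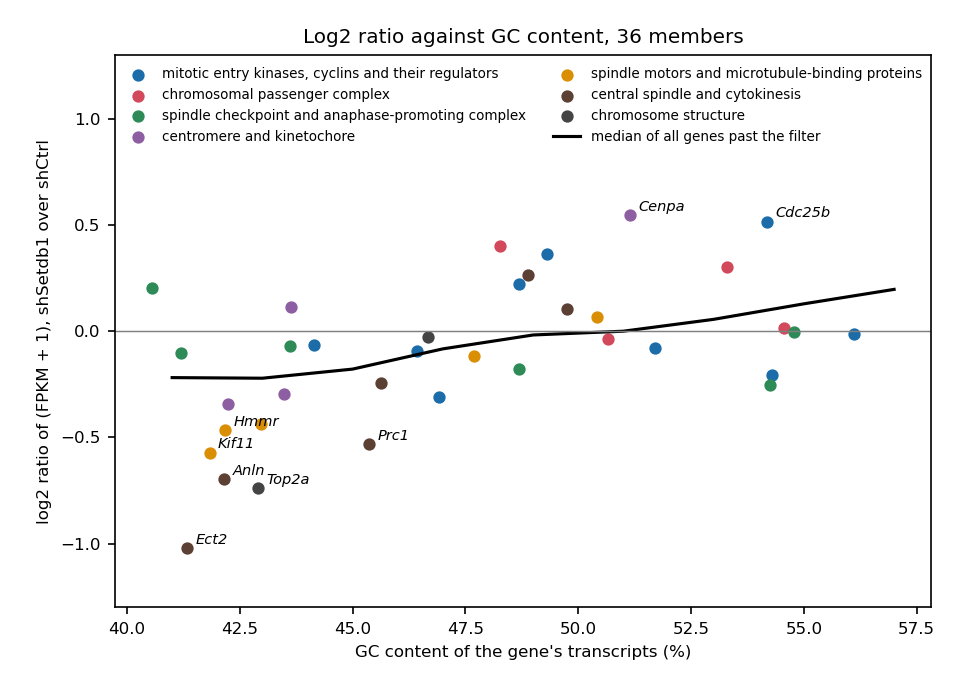
Log2 ratio of (FPKM + 1), knockdown over control, against the GC content of each gene's transcripts for the 36 members that reached 1 FPKM, with the median of all genes past the filter as a black line in bins of GC content. Ect2, Top2a, Anln and Kif11 lie under 43% GC and below the line, and Cenpa and Cdc25b lie above it.

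The promoter letters are set beside the log2 ratios here, and a link between them was not tested. Among the 30 members with a window, the 27 with a homology region had log2 ratios from -1.02 to 0.55 with a median of -0.0650, which is the whole range of the members. Mad2l1, Nuf2 and Nusap1 had no match in their windows, and their ratios ran from -0.44 to -0.10, all below 0. With only 3 members lacking a match, this split cannot show whether the letters go with direction. The 23 members with CCAAT had a median of -0.0715 and the 7 without it -0.10. The 5 with an E2F-type word had a median of -0.0650 and the 25 without it -0.0776. The 15 members with 2 or more CCAAT boxes had a median of -0.0650 and the other 15 a median of -0.18. Cenpa and Ect2, at the 2 ends of the range, both hold TTTGAA just after the start in the stretches printed above.

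The genes that the list keeps apart, those of DNA replication and nucleotide synthesis in S phase, were higher as a group. Of 41 such genes, all past the filter, 32 were above 0 and the median log2 ratio was 0.31, beside -0.0746 for the mitotic genes. At 1.5-fold, 7 replication genes were higher and 1 was lower, beside 0 and 3 of the mitotic genes and 16.9% and 14.3% of all genes, so the upward count was near the share of all genes. The counting interval lay above 1 for 27 of the 41 replication genes, beside 35.2% of all genes, and below 1 for 7, beside 40.6%. These intervals too were narrower than those of all genes, with a median half-width of 0.115 beside 0.169 on the log2 scale. Gins3, a subunit of the replicative helicase, had the highest ratio (1.01), from 2.35 to 5.71 FPKM, and Rfc1, of the clamp loader, the lowest (-0.60), from 6.25 to 3.78 FPKM. Their summed reads were 72675 in shCtrl cells and 84764 in shSetdb1 cells, a read ratio of 1.13 (1.12 to 1.14), beside 0.958 for the mitotic genes. After the correction for GC content and length their median was 0.26. With 1 library in each group the difference between these lists has no test.

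Other mitotic and cell cycle genes, 131 in 6 lists that include E2F and pocket proteins, were centred on their control level. Of the 121 that passed the filter, 12 were past 1.5-fold upward, beside 16.9% of all genes, and 7 past 1.5-fold downward, beside 14.3%, and the median log2 ratio was -0.00450. These shares of all genes are also those to set beside the 1.5-fold counts of the single lists that follow. Among 15 other regulators of mitotic entry, the median was -0.0904. Melk, a kinase of dividing cells, was highest (0.87), from 16.2 to 30.3 FPKM, and Cks1b, a small subunit of cyclin-dependent kinases, was lowest (-1.14), from 154 to 69.4 FPKM. By the log2 ratio of (FPKM + 1), Cks1b is the only gene of these 6 lists that was 2-fold lower, beside 4.85% of all genes, and E2f2 the only one that was 2-fold higher, beside 6.81%. By the read ratio Pds5a (0.356), Kntc1 (0.469) and Cenpu (2.21) were past 2-fold as well.

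Of 31 further kinetochore and checkpoint genes past the filter, 2 were higher and 2 lower at 1.5-fold, with a median of 0.0880. Cenpu, a subunit of the inner kinetochore, was at 1.31 and 2.99 FPKM (0.79) and overlaps Primpol (110 and 58 reads), and Kntc1, of the outer kinetochore complex with Zw10, at 5.22 and 2.53 FPKM (-0.82). Genes of the anaphase-promoting complex had a median of 0.0971 over 17, from Anapc1, its scaffold, at -0.76 (15.9 and 8.99 FPKM) to Fzr1, its G1 activator, at 0.64 (26.0 and 41.1 FPKM), which overlaps Mfsd12 (365 and 904 reads). For condensin, cohesin and separase genes the median over 19 was -0.14, with 1 higher and 3 lower at 1.5-fold, and above 0 after the correction for GC content and length. Pds5a, a regulator of cohesin, was at 2.52 and 0.928 FPKM (-0.87), and Espl1, which encodes separase, at 19.9 and 30.7 FPKM (0.60).

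Other spindle and cytokinesis genes, 21 past the filter, had a median of 0.0820, with 2 higher and 0 lower at 1.5-fold. Cdca3, which is cycle-regulated and acts with an SCF ubiquitin ligase, was highest (0.77), from 25.9 to 44.8 FPKM. Aspm, a spindle pole protein, was lowest (-0.53), from 412 to 218 reads. For the transcriptional regulators of the cycle, MuvB, E2F and pocket proteins, the median over 18 was -0.0116, with 3 higher and 0 lower at 1.5-fold. The direction of that median was not stable: it was 0.53 with a filter at 5 FPKM and 0.0632 after the correction for GC content and length, and the mean was 0.18. E2f2, an activator of S phase genes, was at 1.40 FPKM (128 reads) in shCtrl cells and 8.54 FPKM (781 reads) in shSetdb1 cells, with a log2 ratio of 1.99, and the read ratio was 5.90 (4.89 to 7.17). Rbl1, the pocket protein p107, was lowest (-0.42), from 627 to 440 reads.

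**Figure D4:**
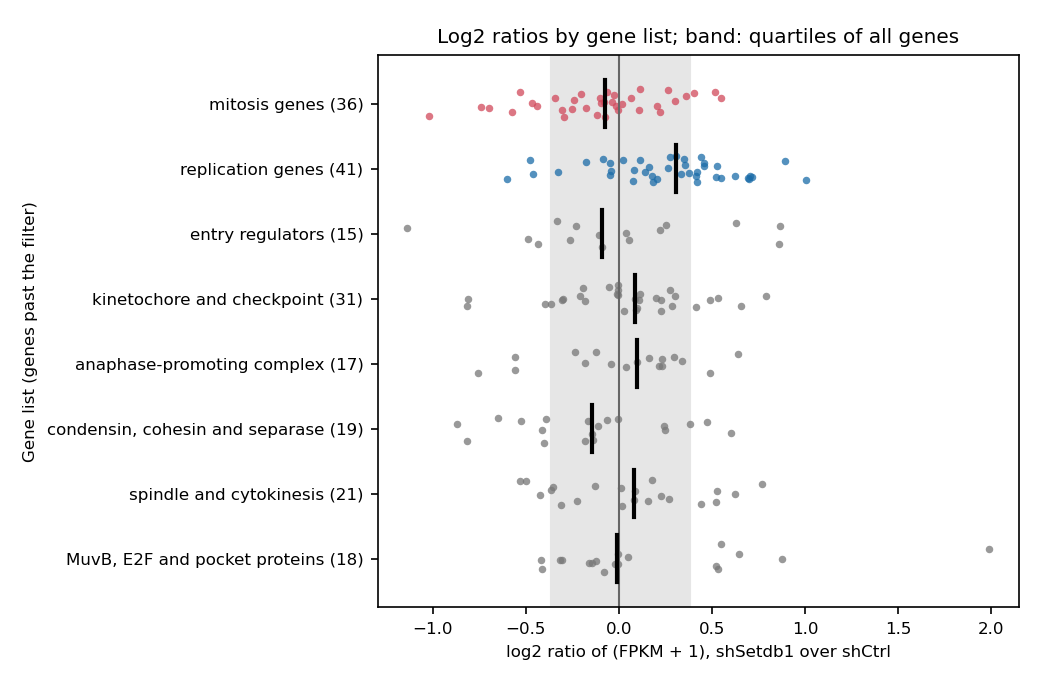
Log2 ratio of (FPKM + 1), knockdown over control, of each gene past the filter in the mitotic list, the replication list and 6 further lists, with the number of genes in brackets. Black bars are list medians, and the grey band and line are the quartiles and median of all 10671 genes. The mitotic median lies at -0.0746 and the replication median at 0.31.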

How the data were processed

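The authors deposited FPKM values for 54680 loci in 1 library of each group, with gene model lengths and positions, per the file headers. HISAT2, featureCounts 1.5.0-p3 and GRCm38 are named in the submitters' processing notes, and the strand setting is not given in the sources used here. FPKM times length over a common step gave whole reads (tolerance 0.001) for 100% of values above 0 in both libraries. Both had been divided by 18731117 reads, so log2 ratios still carry the ratio of the totals, 1.03.

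Log2 ratios of (FPKM + 1) were computed for the 10671 genes that reached 1 FPKM in either library, with thresholds of 1.5-fold and 2-fold. Other pseudocounts, scalings and filters, means, and sums over loci with the same protein match were tried, and the GC and length correction (lowess, span 0.3, GENCODE M21 transcripts) and the read ratio as a log2 value were added after seeing the data. Members and lists were chosen with earlier results of these data known. All members could be named. Full values were given for the highest, lowest and most-read member of each of 7 roles, and of other lists the highest and lowest. Calculations were run on simulated reads with 2-fold changes, equal totals and counting error alone. That run checks the code and cannot show how cultures or PCR copies vary. The software was Python 3.11.15 with scipy 1.17.1 and numpy 2.4.6, with tables in pandas 2.3.3, lowess from statsmodels 0.14.6, and plots in matplotlib 3.10.9. Members' coordinates are those of the deposited table, and 34 of 37 were the same in GENCODE M21.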

Additional observations from a re-analysis of the deposited data

How the results depend on the processing

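No paired analysis was possible because there was only 1 library in a group, which also means that none could be left out. Of 132 alternative values of the planned results, 119 stayed within a set tolerance, 9 moved and 4 reversed. The tolerance was 1.5 times for a count and the counting interval's half-width for Setdb1. For a list median it was the median half-width of the single genes' intervals, which is not the error of a median. For the mitotic genes that was 0.0985 on the log2 scale, larger than the size of their median of -0.0746. The members' median log2 ratio stayed between -0.14 and -0.0380, below 0 under all 11 alternatives run, and the replication median between 0.26 and 0.32 under 10. The number of members 1.5-fold lower was 7 with a pseudocount of 0.1, 8 by read ratio and 1 after GC and length correction, and 1 at 2-fold. Of all genes, 961 were lower with a filter at 5 FPKM, and 727 higher and 518 lower at 2-fold. Setdb1 was at -2.04 with a pseudocount of 0.1 and -2.13 by read ratio, since a smaller pseudocount shrinks the ratio of a low gene less. The condensin, cohesin and separase median turned to 0.0631 after GC and length correction. The MuvB, E2F and pocket protein median turned to 0.0632 after that correction, 0.53 with a filter at 5 FPKM and 0.18 as a mean. Of 295 values of single members, 265 stayed within counting error, 20 moved and 10 reversed. Incenp reversed to -0.0316 with own read totals, -0.0357 with the upper quartile, -0.0167 without the 100 highest genes, -0.12 after GC and length correction and -0.0324 by read ratio. Cdc20 reversed to 0.00018 with the median ratio. Ccnb1 (0.0753), Mad2l1 (0.14), Mki67 (0.15) and Ttk (0.0928) reversed after GC and length correction. For values without a stated reason, the cause was not tested. Depth limits the low members: Ttk, with 156 and 144 reads, and Ndc80, with 190 and 216, have intervals that include 1.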

Other observations

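Loci that the deposited table matches to the same protein as a member held few reads and moved in different ways. Plk-ps1, which shares the Plk1 match, had 66 reads in shCtrl cells and 27 in shSetdb1 cells, beside 3547 and 3515 for Plk1. Ccnb1-ps had 13 and 24 reads, and Gm8416, with the same match, 16 and 10, beside 2394 and 2285 for Ccnb1. With such loci added to the member, none of the 37 members moved beyond counting error.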
